A study of Mus musculus with 58 samples.

Results

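Control retinas were compared across lights on, with 5 libraries taken 1 h into the light phase (ZT1) and 4 taken in the late dark phase (ZT21), chosen by the genotype and time that their labels give. These are 9 of the 58 libraries of a series that covers 6 time points in control and diabetic mice. Zeitgeber time counts hours from lights on, so that lights were on from ZT0 to ZT12. Each library was made from the total RNA of retina after removal of ribosomal RNA. The control mice were male wild-type littermates of Ins2Akita mice on C57/BL/6, 4 months of age, kept since birth in cycles of 12 h of light and 12 h of dark, and no drug or other agent is named for any group. The diabetic mice, used here for comparison, were male littermates that carried the Ins2Akita mutation on 1 chromosome, in which misfolded insulin 2 damages the beta cells of the pancreas, with 5 libraries at each of the same times. All mice were perfused with cold buffer before the retina was removed. Work at ZT21 was done under dim red light and work at ZT1 was not, so light during dissection and the time of day cannot be told apart. The retinas of a time point were collected over an interval on both sides of it, and the labels do not give the time of each.

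At lights on, photoreceptors hyperpolarize, their cyclic nucleotides and calcium fall, and the bipolar, amacrine and ganglion cells behind them change their firing. Neurons that become active switch on immediate early genes, such as the Fos, Egr and Nr4a families, within minutes, partly through the cyclic AMP response element and its binding protein CREB. Dopamine released in the light acts on D4 receptors of photoreceptors, which lower cyclic AMP. The pigment epithelium, a cell layer next to the photoreceptors and outside the neural retina, turns used chromophore back into 11-cis-retinal with Lrat, Rpe65 and Rdh5. Its processes interlock with the outer segments, and some of it can stay on an isolated retina.

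The 9 libraries held between 11492481 and 18918015 counted reads, beside a median of 15406440.5 over the series, and the totals of the ZT1 and ZT21 groups overlapped (exact two-sided permutation test over 126 splits, p = 0.746). Normalised counts below are read counts divided by size factors computed over all libraries. Summed rod markers, which check the tissue, lay between 580000 and 645400 normalised counts at ZT1 and between 598000 and 745100 at ZT21. Hemoglobin genes took at most 0.000481% of reads in any of the 9 libraries. Lens crystallins took 0.320% of reads in replicate 6 of ZT1 and 0.243% in replicate 2 of ZT21, and at most 0.00213% in the other libraries. Without the first of these libraries 98 genes passed the test below, and without the second 113, against 143 with all 9.

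Of 19120 genes tested, 143 differed between ZT1 and ZT21 in control retinas (0.748%; edgeR quasi-likelihood test, Benjamini-Hochberg adjusted p under 0.05). Among them 50 were higher at ZT1 (0.262%) and 93 were lower (0.486%). The higher genes included 7 immediate early genes, and the lower genes included 6 markers of the pigment epithelium. In 45 of the 50 and in 84 of the 93 the ZT1 and ZT21 libraries did not overlap, which holds for 1.89% of all genes in the higher and 1.85% in the lower direction. The median change was 0.63 (log2) among the higher and -0.81 among the lower genes, beside -0.00 over all genes tested. A called change above 1.5-fold was found for 28 higher (0.146%) and 60 lower (0.314%) genes. With replicate 4 or 3 of ZT21 left out the count was 66 or 72, and with replicate 3 or 4 of ZT1 left out it was 83 or 84.

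Of the called genes, the one with the highest log2 fold change was 1700016P03Rik, a non-coding host gene at chr11:75172560-75177633 (GRCm38, plus strand). It had 59.0, 59.4, 46.2, 60.7 and 63.3 normalised counts in the 5 ZT1 libraries and 9.62, 8.83, 6.42 and 3.40 in the 4 ZT21 libraries. Every ZT1 library was thus far above every ZT21 library, and the log2 fold change was 3.07 ± 0.38 (SE; adjusted p = 1.18e-06, edgeR). Its intron 1 holds the hairpins of miR-212 and miR-132, a pair of CREB-regulated microRNAs of neurons. The mature 3p arms of the pair, from RefSeq (GRCm38.p6), are shown because they have the same seed, bases 2 to 8, given in capitals, by which a microRNA finds its targets:
mmu-miR-212-3p: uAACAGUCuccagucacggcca
mmu-miR-132-3p: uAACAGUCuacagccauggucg
They lie at chr11:75173443-75173464 and chr11:75173723-75173744 on the plus strand. The annotated Mir212 hairpin itself, named here after its values were seen, had 13.4, 9.38, 13.9, 20.6 and 11.4 normalised counts at ZT1 and 2.41, 0, 4.01 and 2.55 at ZT21, a log2 fold change of 2.41 ± 0.46 (adjusted p = 0.00181, edgeR). These libraries do not read mature microRNAs as such, so the values describe the precursor or its host transcript. A second host transcript, Gm3294, whose exon 2 holds the hairpin of Mir129-1, went from 64.1 ± 8.5 normalised counts (SD, n = 4) at ZT21 to 154 ± 37 (SD, n = 5) at ZT1, a log2 fold change of 1.27 ± 0.17 (adjusted p = 3.99e-06, edgeR).

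Of 31 immediate early genes tested 7 were called higher at ZT1 and 0 lower, beside 0.262% of all genes. Their median log2 change was 0.36, and 24 of the 31 lay above 0. At an unadjusted p under 0.05, 13 were higher and 2 lower, the latter Ier3 at -0.34 ± 0.11 (adjusted p = 0.232, edgeR) and Ier5 at -0.28 ± 0.11 (adjusted p = 0.463). Nr4a3, a nuclear receptor induced by cyclic AMP and calcium, had 116, 152, 182, 195 and 153 normalised counts at ZT1 against 24.1, 16.4, 46.6 and 34.8 at ZT21. The groups did not overlap, and the level was 5.02-fold higher at ZT1 (log2 fold change 2.33 ± 0.37, adjusted p = 1.54e-04, edgeR). Npas4, a transcription factor switched on by calcium entry into neurons, had 93.5, 89.1, 88.9, 121 and 93.1 at ZT1 against 36.1, 29.0, 42.5 and 39.9 at ZT21. Its libraries spanned 1.36-fold at ZT1, with replicate 4 apart from the others, and 1.47-fold at ZT21. The log2 fold change was 1.37 ± 0.25 (adjusted p = 9.48e-04, edgeR). Egr3 and Egr4, zinc finger factors of the same response, rose from means of 14.5 and 8.54 normalised counts to 46.1 and 26.9, by 1.67 ± 0.35 and 1.68 ± 0.39 on the log2 scale. Fosl2, a partner of Jun in the AP-1 factor, had 227, 302, 264, 358 and 378 at ZT1 and 147, 115, 109 and 131 at ZT21 (log2 fold change 1.29 ± 0.20, adjusted p = 1.40e-04, edgeR). The remaining called members were Klf4, with a log2 fold change of 0.93 ± 0.23, and Btg2, an antiproliferative gene, with 0.36 ± 0.09. Egr3 was not called without replicate 3 of ZT21. Egr4 was not called without replicate 1 of ZT1 or replicate 2, 3 or 4 of ZT21, Btg2 not without replicate 1, 3 or 6 of ZT1 or 3 or 4 of ZT21, and Klf4 not without replicate 2, 3 or 4 of ZT1 or 2 or 3 of ZT21.

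The best known members of the family were not among those called. Fos had a log2 fold change of 0.62 ± 0.39 (adjusted p = 0.757, edgeR) and Egr1 one of 0.67 ± 0.62 (adjusted p = 0.909). Their ZT1 libraries were wide apart, from 420 to 780 normalised counts for Fos and from 765 to 1777 for Egr1. These are 1.86-fold and 2.32-fold from lowest to highest, where among the called members Npas4 spanned 1.36-fold, Egr3 1.40-fold, Nr4a3 1.69-fold and Egr4 2.41-fold. For both genes the ZT1 counts fell in the order of the replicate numbers, from replicate 1 to replicate 6. Fos did so at ZT21 too, from 431 to 330, and Egr1 did not, as replicate 2 was highest. The reason for this order was not tested. Nr4a1 and Nr4a2, relatives of Nr4a3, had log2 fold changes of 0.36 ± 0.27 and 0.22 ± 0.12 (adjusted p = 0.841 and 0.692), and Arc, a synaptic gene, one of 0.88 ± 0.30 (adjusted p = 0.254). Junb was higher without overlap between the groups, at 325 ± 42 (SD, n = 5) against 237 ± 21 (SD, n = 4) normalised counts, but did not pass (adjusted p = 0.592).

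**Figure D1:**
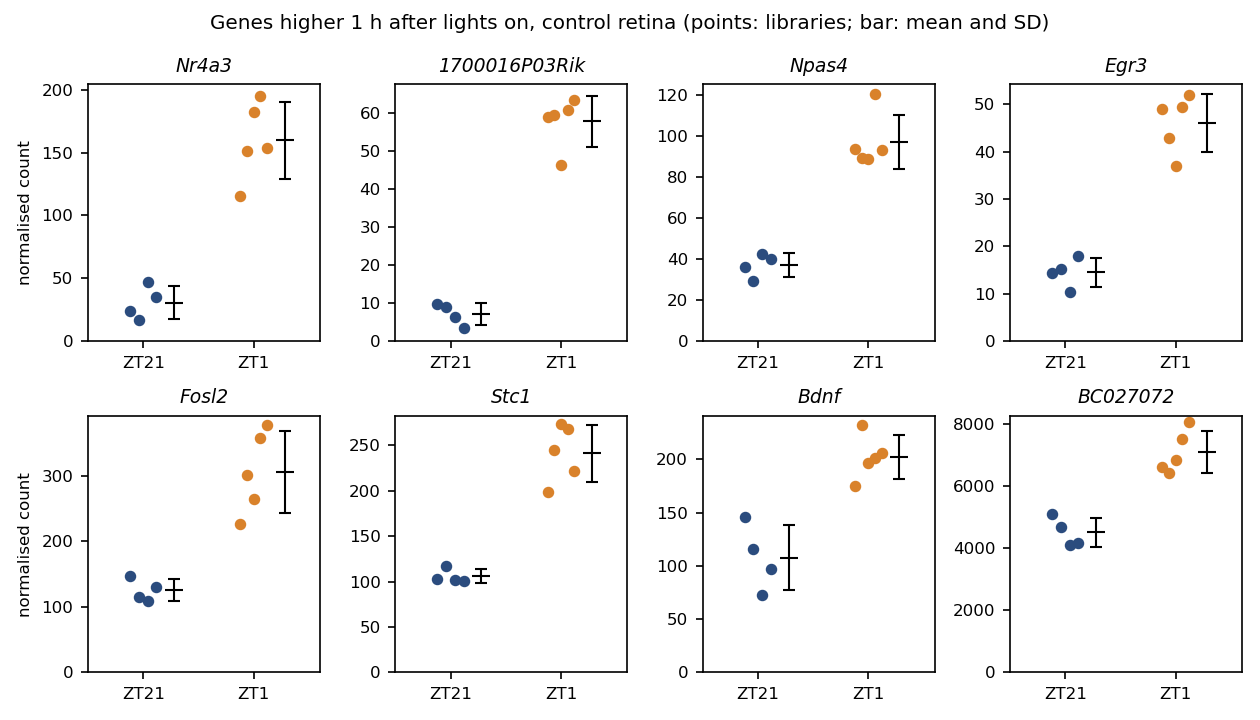
Normalised counts (vertical axes, from 0) of 8 genes that were higher at ZT1, one point per control library, with the mean and SD beside them. In each panel the 5 ZT1 libraries lie above the 4 ZT21 libraries, as for Nr4a3 with 116 to 195 against 16.4 to 46.6.

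Of 17 tested growth factor and neurotrophic genes 1 was called, Bdnf, beside 0.262% of all genes, and the median over that list was -0.05. Bdnf, a neurotrophin, went from 108 ± 31 (SD, n = 4) to 202 ± 21 (SD, n = 5) normalised counts, a log2 fold change of 0.92 ± 0.19 (adjusted p = 0.00381, edgeR). Dusp4, a phosphatase of ERK, had 839, 894, 780, 906 and 921 at ZT1 and 594, 568, 401 and 448 at ZT21, and Spry4, an inhibitor of receptor tyrosine kinase signalling, was 2.33-fold higher. Dusp6 and Dusp5, related phosphatases, had log2 fold changes of 0.22 ± 0.14 and 0.25 ± 0.13 and did not pass. Stc1, a secreted glycoprotein hormone, had 199, 245, 274, 268 and 222 normalised counts against 103, 117, 102 and 101, with the ZT21 libraries nearly level and the ZT1 libraries all well above them (log2 fold change 1.19 ± 0.17, adjusted p = 4.86e-05, edgeR). Plk2 and Plk3, polo-like kinases of which Plk2 acts at active synapses, changed by 0.61 ± 0.11 and 1.25 ± 0.32 on the log2 scale, and Csrnp1, a nuclear protein, by 0.76 ± 0.19. For Plk3 the groups overlapped, at a mean of 32.5 normalised counts (adjusted p = 0.0407, edgeR). Bdnf, Dusp4 and Spry4 were not called without replicate 3 of ZT21, nor were Dusp4 and Spry4 without replicate 4 of ZT21.

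Of the genes of cyclic AMP and dopamine, 3 of 17 tested were called, 2 higher and 1 lower, beside 0.748% of all genes, and their median log2 change was -0.03. Pde4b and Pde4d, phosphodiesterases that break down cyclic AMP, were higher by small amounts and with little spread. Pde4b had 1283, 1349, 1347, 1286 and 1239 normalised counts at ZT1 and 1090, 1082, 1000 and 1041 at ZT21 (log2 fold change 0.30 ± 0.06, adjusted p = 0.00625, edgeR), and Pde4d went from 810 ± 25 (SD, n = 4) to 989 ± 20 (SD, n = 5), a change of 0.28 ± 0.07 (adjusted p = 0.0191). Drd4, the dopamine D4 receptor, was lower. Its libraries held 3138, 2700, 2240, 2795 and 2603 normalised counts at ZT1 and 4140, 3836, 5184 and 5828 at ZT21, a log2 fold change of -0.82 ± 0.14 (adjusted p = 3.36e-04, edgeR). No ZT1 library reached the lowest ZT21 library. Th, which makes the precursor of dopamine, Drd1 and Adcy1, a cyclase under clock control in photoreceptors, were not called, with log2 fold changes of 0.29 ± 0.24, -0.01 ± 0.08 and -0.05 ± 0.07. Without replicate 3 of ZT21 neither phosphodiesterase was called, and Pde4d was also not called without replicate 4 of ZT21 or replicate 6 of ZT1.

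Promoter sequences were searched because genes of cyclic AMP and calcium signalling were among those that moved. RefSeq gave a start site for 34 of the 50 higher genes, 62 of the 93 lower genes and 11936 of the genes tested, and the 250 bases before each start were read on both strands. The palindrome TGACGTCA, the full cyclic AMP response element, was found for 6 of the 34 higher genes (17.6%), 0 of the 62 lower genes and 3.00% of the genes tested. Its 5-base core, TGACG or the reverse complement CGTCA, which the palindrome holds on both strands, was found for 21 of the 34 (61.8%), 10 of the 62 (16.1%) and 29.2% of the genes tested. A gene with several starts counted once if any of them held the motif, and no test was made. RefSeq and Gencode place the starts of some genes differently, so a window before a RefSeq start can lie inside a gene as Gencode draws it. For comparison, the E-box CACGTG, the site of clock factors, was found for 8.82% of the higher genes, 8.06% of the lower genes and 9.45% of the genes tested. The CArG box, through which Srf acts on other immediate early genes, was found for 2.94% of the higher genes, 0% of the lower genes and 1.37% of the genes tested.

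The 250 bases before the RefSeq start of 3 higher genes that hold a full element, 5′ to 3′ on the gene's strand, show where it sits, with the element in capitals:
Btg2: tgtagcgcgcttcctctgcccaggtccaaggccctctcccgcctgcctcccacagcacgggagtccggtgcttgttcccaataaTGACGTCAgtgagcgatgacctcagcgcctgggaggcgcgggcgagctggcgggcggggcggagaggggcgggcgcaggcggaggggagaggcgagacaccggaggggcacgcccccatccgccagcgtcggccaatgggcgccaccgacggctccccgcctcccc
Plk2: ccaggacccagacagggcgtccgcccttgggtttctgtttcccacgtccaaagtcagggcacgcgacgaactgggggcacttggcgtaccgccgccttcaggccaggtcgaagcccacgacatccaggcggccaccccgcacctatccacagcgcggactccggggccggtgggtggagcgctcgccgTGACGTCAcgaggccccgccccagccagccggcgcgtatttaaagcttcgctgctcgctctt
Dio2: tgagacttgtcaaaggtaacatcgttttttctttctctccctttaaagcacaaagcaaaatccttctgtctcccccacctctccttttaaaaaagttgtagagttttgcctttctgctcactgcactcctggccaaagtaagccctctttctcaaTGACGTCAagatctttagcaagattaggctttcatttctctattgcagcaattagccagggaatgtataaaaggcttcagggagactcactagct
In GRCm38.p6 these are chr1:134079156-134079405 (minus strand) for Btg2, chr13:110394794-110395043 (plus) for Plk2 and chr12:90739039-90739288 (minus) for Dio2. None of the printed bases lies inside the same gene as Gencode draws it. The other 3 higher genes with a full element were Arhgef7, Ddx51 and Ppan. The 6 genes with it changed by 0.18 (Arhgef7) to 0.79 (Dio2) on the log2 scale. Nr4a3, Npas4, Egr4, Klf4 and Bdnf held the 5-base core but not the full element. No start site was given for 1700016P03Rik, Egr3 and Stc1, so their promoters were not searched.

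Dio2, which turns thyroxine into the active thyroid hormone, had 268, 366, 389, 479 and 369 normalised counts at ZT1 and 236, 207, 218 and 204 at ZT21. The log2 fold change was 0.79 ± 0.17 (adjusted p = 0.00774, edgeR). Ddx51, Ppan, Polr1b and Diexf, chosen after their values were seen and all known for making ribosomes in the nucleolus, were higher by 0.34 ± 0.07, 0.35 ± 0.09, 0.35 ± 0.09 and 0.45 ± 0.07 on the log2 scale. For Ppan the groups overlapped (adjusted p = 0.0427, edgeR). None of 83 cytosolic ribosomal protein genes tested was called (median log2 change 0.00). Acadm and Cpt1a, enzymes of fatty acid oxidation, were higher by 0.44 ± 0.08 and 0.29 ± 0.07, as 2 of the 20 tested genes of that list, beside 0.262% of all genes called higher. At an unadjusted p under 0.05, 2 of the 20 were higher and 4 lower. Acadm had 1015, 1016, 1140, 1148 and 1167 normalised counts at ZT1 and 876, 765, 794 and 786 at ZT21. The median over that list was -0.03. Dio2 was not called without replicate 4 of either time, and Cpt1a not without replicate 4 or 6 of ZT1 or 3 or 4 of ZT21.

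BC027072, now named Pcare, a photoreceptor gene of outer segment formation and of retinal dystrophy, was higher at ZT1. Its libraries held 6632, 6421, 6834, 7535 and 8063 normalised counts at ZT1 and 5114, 4680, 4093 and 4157 at ZT21. The groups did not overlap, and the log2 fold change was 0.65 ± 0.10 (adjusted p = 1.40e-04, edgeR). Fscn2, an actin bundling protein of photoreceptors, was higher by 0.38 ± 0.10 (adjusted p = 0.0409). The machinery of phototransduction was not called. None of 10 rod phototransduction genes, 11 cone phototransduction genes, 12 genes of photoresponse shut-off, 12 outer segment genes or 15 photoreceptor channels and pumps passed, with medians between -0.07 and -0.04.

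Pigment epithelium genes were lower at ZT1. Of 10 tested markers 6 were called lower and 0 higher, beside 0.486% of all genes, with a median log2 change of -1.13. Lrat, which esterifies retinol, had 63.4, 35.2, 25.4, 30.8 and 48.8 normalised counts at ZT1 and 295, 189, 124 and 153 at ZT21 (log2 fold change -2.21 ± 0.33, adjusted p = 4.86e-05, edgeR). Rpe65, the isomerase of the visual cycle, had 236, 116, 55.4, 65.4 and 160 against 817, 622, 450 and 457 (-2.21 ± 0.37, adjusted p = 3.32e-04). Both were over 4.6-fold higher at ZT21 on the fitted scale, without overlap. Ttr, which carries thyroid hormone and retinol, Rgr, an opsin of the pigment epithelium and Muller glia, Rdh5, a retinol dehydrogenase, and Stra6, a receptor for retinol binding protein, changed by -1.80 ± 0.33, -1.72 ± 0.31, -1.19 ± 0.25 and -1.06 ± 0.22. In the visual cycle as a whole 5 of 12 genes were lower, Rdh10 among them (-0.40 ± 0.09). Rbp3, Abca4 and Rdh12, which photoreceptors express, had -0.09 ± 0.09, -0.02 ± 0.05 and 0.10 ± 0.07 and did not pass.

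Outside that marker list, Slc16a8, a lactate transporter, was among the lowest called genes and had 57.9, 28.1, 13.9, 22.4 and 35.9 normalised counts at ZT1 and 148, 95.9, 77.1 and 90.9 at ZT21. Col8a1 and Col8a2, collagens, Car12, a carbonic anhydrase, Thbs1, a matrix protein, Cdh3, a cadherin, and Cpxm2 had log2 fold changes between -1.64 and -1.28. The pigment genes were not called, and their errors were wide. Pmel, a protein of melanosomes, ranged from 11.2 to 152 normalised counts at ZT1 and from 17.7 to 146 at ZT21 (log2 fold change 0.10 ± 0.74, adjusted p = 1.00), and Tyrp1, an enzyme of melanin synthesis, had a log2 fold change of -0.05 ± 0.64. For both, replicate 6 of ZT1 and replicate 1 of ZT21 were the highest of their groups, and the groups overlapped. Best1, an ion channel, had -0.87 ± 0.41 (adjusted p = 0.586).

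Over 11 pigment epithelium markers the summed share of reads was 0.0253% ± 0.0061 (SD, n = 4) in the ZT21 libraries and 0.00840% ± 0.00377 (SD, n = 5) in the ZT1 libraries, with no overlap (exact two-sided permutation test over 126 splits, p = 0.0159, the smallest it can give). In a whole retina, less RNA per cell and fewer cells of that type cannot be told apart. The same sum in control retinas over the day had medians of 1215, 1349, 2805, 2938, 2699 and 3498 normalised counts from ZT1 to ZT21, and in diabetic retinas of 1231, 633, 1919, 3286, 2243 and 3584. In both genotypes the medians were thus lowest at ZT1 and ZT5 and highest at ZT21, although the mean of diabetic retinas was higher at ZT13, at 3657, than at ZT21, at 3534.

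**Figure D2:**
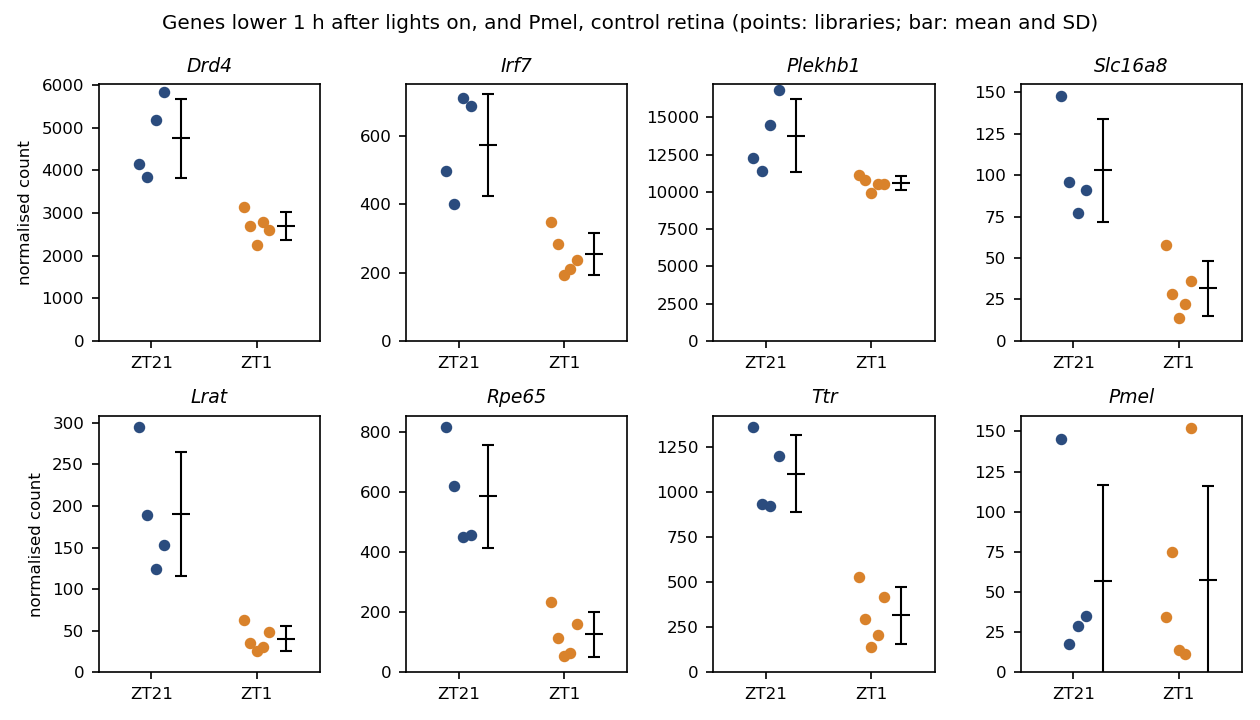
Normalised counts (vertical axes, from 0) per control library, with mean and SD, for 7 genes that were lower at ZT1 and for Pmel; SD bars are cut at 0. Drd4, Irf7, Plekhb1, Slc16a8 and the pigment epithelium markers Lrat, Rpe65 and Ttr separate the groups, and Pmel, from 11.2 to 152, does not.

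Because that marker sum moved with the groups, the fit was repeated with its log2 value as a covariate, an alternative chosen after seeing the data. With it 14 of the 143 genes were called, 6 higher and 8 lower, and no others. The covariate takes up part of any difference between the times, since the sum separates them, so a call lost with it does not show that the gene was level. All 50 higher genes kept at least 50% of their log2 change. Of the 93 lower genes, 51 kept at least 50% and 42 did not. The latter include Rpe65, Lrat, Ttr, Rgr, Rdh5 and Stra6, which enter the sum themselves, and Slc16a8, Col8a2, Car12 and Thbs1, which do not and which went to -0.10, -0.04, -0.26 and -0.18. Of the 93, 89 kept their sign, and Cpxm2 turned to 0.085. The higher genes called with the covariate were 1700016P03Rik, Fosl2, Gm3294, Stc1, BC027072 and Pde4b. The lower ones were Irf7, Drd4, Sik2, Amer2, Fam212b, Gm20548, Gm28192 and 4632432E15Rik.

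**Figure D3:**
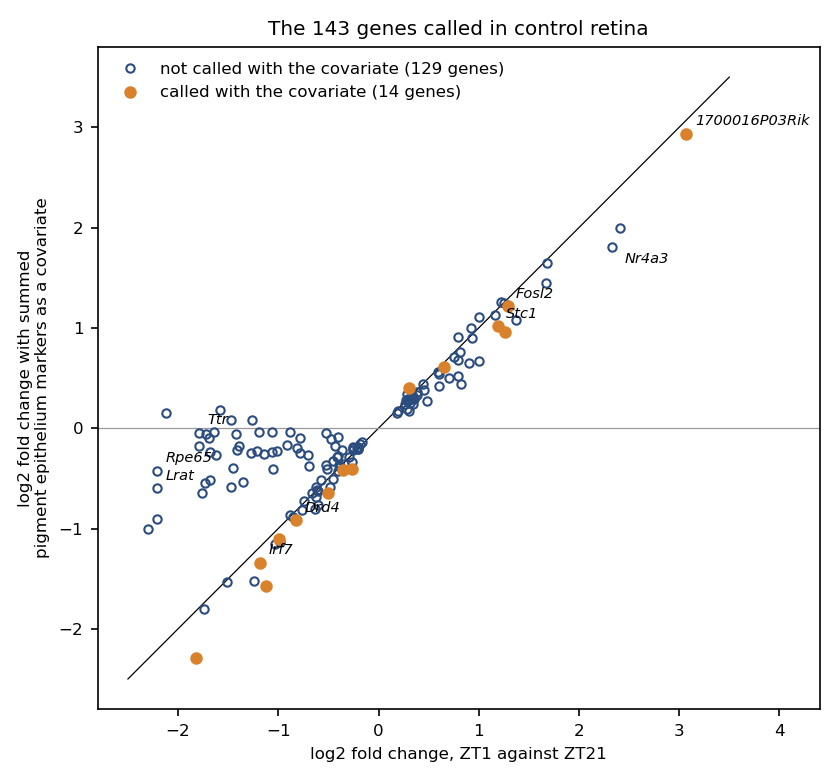
Log2 fold change of the 143 called genes without (horizontal axis) and with (vertical axis) summed pigment epithelium markers as a covariate, with the line of equal values; filled points are the 14 genes called both ways. Higher genes lie along the line, and 42 of the 93 lower genes lie nearer to 0 than 50% of their change.

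Several lower genes belong to the neural retina or to innate immunity. Irf7, the transcription factor that drives interferon genes, had 348, 283, 194, 210 and 238 normalised counts at ZT1 and 497, 400, 711 and 688 at ZT21 (log2 fold change -1.18 ± 0.19, adjusted p = 1.40e-04, edgeR), and -1.34 with the covariate. Vsx1, a homeobox factor of cone bipolar cells, had 407, 398, 372, 307 and 331 normalised counts at ZT1 and 439, 491, 476 and 513 at ZT21 (-0.41 ± 0.10, adjusted p = 0.0426), without overlap. It was not called without replicate 2, 3 or 4 of ZT21 or replicate 3, 4 or 6 of ZT1. Gnaz, an inhibitory G protein subunit, Sik2, a kinase that restrains CREB coactivators, and Aqp1, a water channel, were lower by -0.60 ± 0.13, -0.51 ± 0.10 and -0.46 ± 0.11. Hk2, the hexokinase of photoreceptors, and Egln1, an oxygen sensor, had -0.41 ± 0.10 (adjusted p = 0.0330) and -0.36 ± 0.10 (adjusted p = 0.0498), and the groups overlapped for both. Either call was lost without replicate 1, 3 or 4 of ZT21 or replicate 3, 4 or 6 of ZT1, and that of Egln1 also without replicate 2 of ZT1. Sox10, a factor of neural crest and myelinating glia, named after its values were seen, had the lowest log2 fold change of all called genes, -2.30 ± 0.40, at a mean of 15.7 normalised counts over the 9 libraries. With the pigment epithelium covariate it had -1.004 and was not called (adjusted p = 0.978, edgeR).

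None of the 8 clock repressors, 6 clock activators and ROR receptors or 7 clock output factors was called, with medians of 0.13, -0.16 and -0.00. Per1, the repressor that light induces in the brain clock, had from 1871 to 2803 normalised counts at ZT1 and from 1534 to 1808 at ZT21. The groups did not overlap, yet the log2 fold change of 0.41 ± 0.16 did not pass (adjusted p = 0.412, edgeR; unadjusted p under 0.05, as for 7.90% of all genes). Rorb and Rora, nuclear receptors of the clock loop that photoreceptors and bipolar cells also use, lay lower at ZT1 without overlap, at -0.35 ± 0.10 (adjusted p = 0.105) and -0.27 ± 0.08 (adjusted p = 0.153). Arntl, Clock and Dbp had 0.06 ± 0.07, -0.10 ± 0.08 and -0.01 ± 0.12. Among 6 retinal genes under clock control Drd4 and Plekhb1 were called, both lower, beside 0.486% of all genes, Plekhb1, a membrane protein of photoreceptors, at -0.38 ± 0.09 (adjusted p = 0.0237) and not without replicate 3 or 4 of ZT21 or replicate 3, 4 or 6 of ZT1. Heat shock proteins, chaperones of the endoplasmic reticulum, ATF4 targets, cholesterol synthesis, splicing regulators, proteasome subunits and histones had 0 members called in each list (edgeR; medians between -0.08 and 0.19). Markers of rods, cones, Muller glia, astrocytes, endothelium, microglia, ganglion cells and amacrine cells also had 0 called, with medians between -0.20 and 0.14. Bipolar cell markers were not among these lists, since they include Vsx1, which was called lower, and the median over the 9 tested was -0.15.

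The diabetic libraries form neither group of the comparison that called the 143 genes, but all 58 libraries shared the filter, the size factors and the estimate of spread. With the 30 control libraries alone 101 genes were called, and with the 9 libraries alone 61. In diabetic retina 533 genes were called (2.79%), 266 higher (1.39%) and 267 lower (1.40%). All 50 higher and all 93 lower genes of control retina had the same sign in diabetic retina, where 13247 of the 19120 genes tested did, and 34 and 73 of them were called. The median log2 changes were 0.45 and -0.78. Nr4a3 changed by 2.67 ± 0.35, Npas4 by 1.46 ± 0.23, Stc1 by 1.09 and Drd4 by -0.81 ± 0.13, each called. Of the immediate early genes 8 were called higher and 0 lower, and of the pigment epithelium markers 6 were lower and 0 higher.

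No gene was called for a difference between the genotypes in its change across lights on (0 of 19120, edgeR quasi-likelihood test of the difference; 446 genes, 2.33%, at an unadjusted p under 0.05; 0 called by DESeq2). Dio2, at 0.79 in control and 0.20 ± 0.16 in diabetic retina, differed by -0.60 ± 0.23 (unadjusted p = 0.0136, adjusted p = 1.00). Pde4b had 0.06 ± 0.06 in diabetic retina, a difference of -0.24 ± 0.09 (unadjusted p = 0.00727, adjusted p = 1.00). For 1700016P03Rik the change was 2.04 in diabetic retina, a difference of -1.03 ± 0.51 (unadjusted p = 0.0474, adjusted p = 1.00). These genes were therefore not shown to respond in control retina alone.

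The step across lights off in control retina, ZT13 against ZT9, compares no library of ZT1 or ZT21, although these entered the same filter, size factors and estimate of spread. Dim red light was used at all time points of the dark phase, so at ZT13 and not at ZT9. Light during dissection and the time of day thus cannot be told apart at this step either. The step called 24 genes (0.126%), 12 higher and 12 lower (0.0628% each), and 5.69% of genes had an unadjusted p under 0.05. Of these 13 were also called across lights on, 9.09% of the lights-on genes and 54.2% of the lights-off genes, and all 13 moved the opposite way. With only the libraries compared in the fit, 8 genes were called across lights off, 7 of them among the 24. Lower after lights off and higher after lights on were 1700016P03Rik, Nr4a3, Egr3, Fosl2, Stc1, BC027072 and Fscn2. Their log2 changes at lights off were -2.32 ± 0.32 for 1700016P03Rik, -2.24 ± 0.35 for Nr4a3, -1.19 for Fosl2, -1.10 for Stc1 and -0.55 for BC027072. Higher after lights off and lower after lights on were Hk2, Zdhhc5, Tuft1, Wscd2, A930033H14Rik and Gm12758, with Hk2 at 0.54. Of the 50 genes higher across lights on, 49 had the opposite sign at lights off, and of the 93 lower genes 66 did, beside 64.1% of all genes tested. The pigment epithelium markers had 0 called across lights off and a median of -0.11.

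Over the rest of the day the genes fell into different courses. Nr4a3 in control retina had means of 160, 66.2, 150, 31.7, 41.1 and 30.5 normalised counts at ZT1, ZT5, ZT9, ZT13, ZT17 and ZT21, so that it dipped within the light phase. The step from ZT1 to ZT5, which shares the ZT1 libraries and called 0.805% of genes, was -1.25 ± 0.30 for Nr4a3 (adjusted p = 0.0299, edgeR) and -1.05 for Fosl2 (adjusted p = 7.98e-04). BC027072 stayed between 6453 and 7347 in the light and between 4511 and 5049 in the dark. Drd4 had means of 2695, 2008 and 2334 in the light and 3237, 5023 and 4747 in the dark, and Irf7 255, 150 and 172 in the light and 282, 708 and 574 in the dark. Irf7 thus went on from ZT1 to ZT5 in the direction it had taken across lights on (-0.76, adjusted p = 0.0311, edgeR). Rpe65, in contrast, had means of 127 and 159 at ZT1 and ZT5 and of 554 already at ZT9, within the light phase. Between ZT17 and ZT21, which shares the ZT21 libraries, 0 genes were called (edgeR; 1099, or 5.75%, at an unadjusted p under 0.05).

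**Figure D4:**
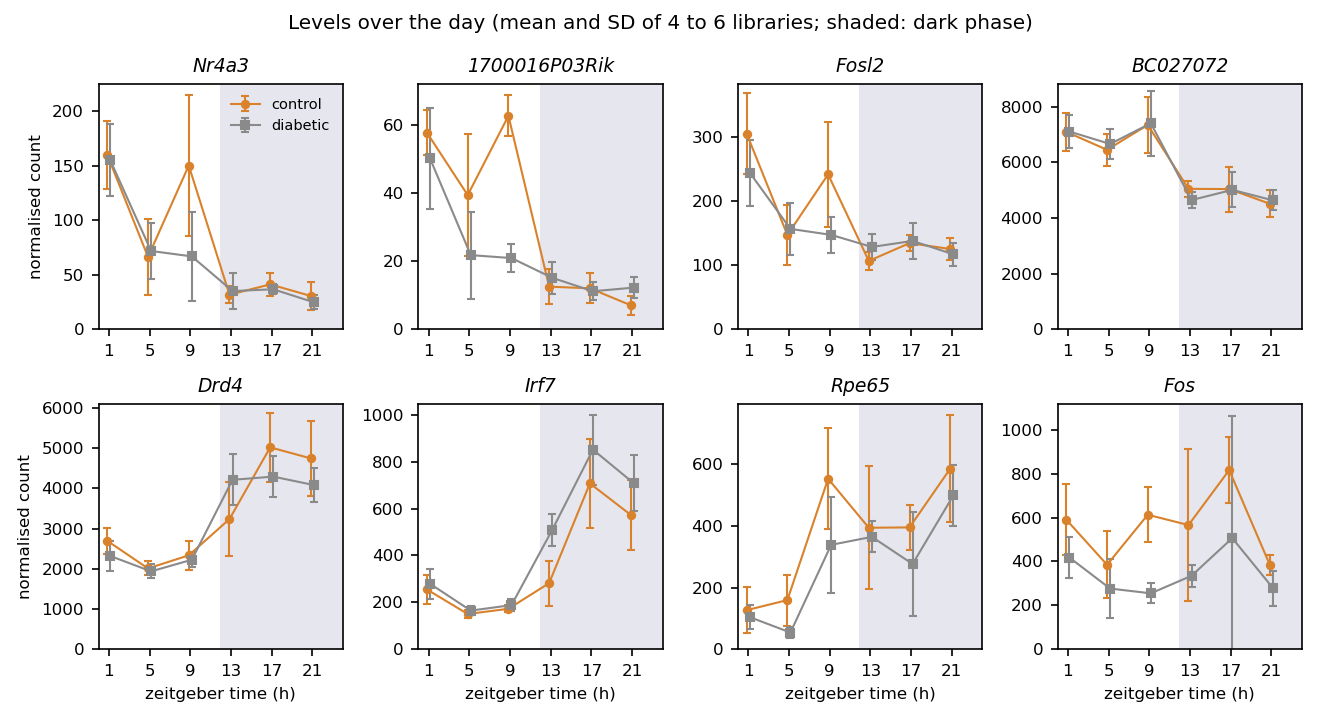
Normalised counts (vertical axes, from 0; mean and SD of 4 to 6 libraries, bars cut at 0) of 8 genes over zeitgeber time in hours, with the dark phase shaded, in control (circles) and diabetic (squares) retina. In control retina Nr4a3 is at 160 at ZT1 and 66.2 at ZT5, BC027072 has lower means in the dark than in the light, Drd4 and Irf7 have higher ones, with Irf7 at 282 at ZT13 and 708 at ZT17, and Rpe65 is lowest at ZT1 and ZT5.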

How the data were processed

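RNA of 58 single retinas had been sequenced. According to the submitters' processing notes and the methods of the study, the authors used STAR 2.7.4a for alignment, GRCm38.p5 as the genome, Gencode M15 as the annotation and HTSeq 0.11.1 for counting reads per gene. The strand setting of the counting is not given in the sources used here, so a gene and its antisense partner, such as Dbhos or Gm20548, may share reads. The deposited values are raw read counts for 52459 symbols, of which 15226 had no read. Columns were assigned to samples by title.

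All 58 libraries were fitted in 1 model of 12 groups of genotype and time with edgeR 4.0.16 (R 4.3.3, TMM factors, quasi-likelihood test), for the 19120 genes with a median above 4 counts after division by DESeq2 1.42.0 size factors. P-values were adjusted by Benjamini-Hochberg over all genes tested, and genes under 0.05 were called. SE is that of the log2 fold change. On simulated counts 96% of genes changed 2-fold and 75% of those changed 1.5-fold were recovered for control ZT1 against ZT21, and 3.93% of the calls were false. Replicate pairs within a group differed by more than sampling noise, the smallest chi-square per degree of freedom of 16 pairs being 2.65. Library shares were compared by exact permutation tests (scipy 1.17.1).

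The comparison and the gene lists were chosen with earlier results of these data known. Genes were named by rule: the 12 highest and the 12 lowest called genes with non-overlapping groups and a mean of at least 50 normalised counts, leaving out Gm and Rik symbols, of which up to 2 in each direction were added. To these came the 8 genes with the smallest p, all clock and immediate early genes, and up to 4 called members of every other list, or 2 if none was called. Any gene named outside this rule was chosen after its values were seen. The alternatives were other size factors, DESeq2, other filters, fewer libraries, a replicate block, trends of GC content and length removed, each library left out and, after seeing the data, the pigment epithelium covariate. Not every gene that meets the rule is reported here.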

Additional observations from a re-analysis of the deposited data

Results flagged for a closer look

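Among 184 groups of 4 or 5 values examined, 10 held a library that stood apart from the rest by Dixon's 95% criterion, where chance gives about 1 in 20 groups. Npas4 was high in replicate 4 of ZT1, at 120.6 normalised counts against 88.9 to 93.5 in the other libraries of its group. Stc1 was high in replicate 2 of ZT21, at 117.4 against 101.1 to 103.4. The host transcript 1700016P03Rik was low in replicate 3 of ZT1, at 46.2 against 59.0 to 63.3. Each of these libraries still lay on its own side of the comparison between ZT1 and ZT21. Ciart was low in replicate 1 of ZT21, at 80.58 against 111.0 to 117.3. Nr4a1 was low in replicate 6 of ZT1, at 793.5 against 965.6 to 1031, and Nr4a2 was high in replicate 3 of ZT1, at 187.1 against 142.4 to 155.1. Hemoglobin genes took 0.000481% of reads in replicate 6 of ZT1 and 0.0003085% in replicate 4 of ZT21. Lens crystallins took 0.3197% in replicate 6 of ZT1 and 0.2428% in replicate 2 of ZT21, against at most 0.00213% elsewhere in the 9 libraries. No gene of this comparison passed the test of a difference between the genotypes.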

How the results depend on the processing

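The 143 genes called across lights on in control retina became 61 with only the 9 libraries in the fit (59 of them among the 143), 14 with the pigment epithelium covariate, and 66 to 135 with 1 library left out. Under the other alternatives the count was 100 to 197. The 533 genes of diabetic retina became 312 without a filter, 1008 with GC and length trends removed, 42 with the covariate, and 289 to 641 with 1 library left out. The 24 genes across lights off became 39 with DESeq2, 8 with only the libraries compared, 37 with the replicate block, 59 with GC and length trends removed, and 12 to 23 with 1 library left out. The genotype difference stayed at 0 throughout. The cause of these shifts was not tested, beyond the fewer libraries and the covariate that the alternatives themselves bring in. Same-numbered ZT1 and ZT21 libraries had correlations of their deviations between 0.000328 and 0.275 and others between -0.472 and 0.380, so the numbers are not taken to pair them. With the replicate block 120 genes were called in control retina, 107 of them among the 143, and 762 in diabetic retina. Over the 48 named genes called, 707 results under the alternatives kept direction and call, 149 kept direction and lost the call, and 1 reversed, Cpxm2 at 0.085 with the covariate. With 5 and 4 libraries, changes of 1.5-fold or less are recovered in part only, and recovery at low counts was not measured, so a gene not called may still differ.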
